A study of Mus musculus with 8 samples.

Results

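The genes described here encode the proteins of the mitochondrial ribosome in 4T1 cells, a mouse triple-negative breast cancer cell line. They were taken by symbol, as every gene named Mrpl or Mrps with a digit, with pseudogene symbols left out. Of the 28712 genes listed in the data, 78 carried such a symbol and 77 had a mean normalized count of at least 10 (a read count divided by its library's size factor, averaged over libraries). All 77 were among the 13839 genes that could be tested. *Mrpl53* was the single gene below that mean, with 0 to 7 reads in a library, and the gene with the lowest mean among those kept was *Mrps12*, at 62.5 normalized counts. Rows of 5 pseudogenes were left out.

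Cells of all groups were kept in RPMI medium under hypoxia at 1% O2. They received 0.5 μg/ml of a single-domain antibody (sdAb), which is the small antigen-binding domain of an antibody, supplied as purified protein. sdAb#07.81 was selected against NUPR1, a stress-induced nuclear protein, and sdAb-Con is the control sdAb. sdAb#07.81 was given for 24 h in 1 group and for 48 h in another, and the last group received sdAb-Con for 48 h. Each group has 2 libraries, called A and B here because the deposited values carry no replicate number. An untreated group, Con, was not analysed here. All groups come from 1 cell line, and no label says that the libraries of a group came from separate cultures, so p-values measure the spread between these libraries, which may be technical.

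Mitochondria keep a ribosome of their own, which makes the few respiratory chain subunits encoded by mitochondrial DNA. Its RNA is made inside the organelle, while its proteins are encoded in the nucleus, made in the cytosol and imported. The small subunit reads the messenger RNA and the large subunit joins the amino acids. Some of its proteins have relatives in bacterial ribosomes, and others exist in mitochondria alone. Of the 77 genes, 50 encode large subunit proteins and 26 small subunit proteins, with 46 of bacterial descent and 30 specific to mitochondria. *Mrps36* bears a ribosomal name but encodes a subunit of the alpha-ketoglutarate dehydrogenase complex. The genes lie on 17 chromosomes.

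Their promoters are shown first, because ETS family factors and NRF1 are known for binding in promoters of nuclear genes for mitochondrial proteins. RefSeq promoters of build GRCm38.p6, from 250 bases before to 50 bases after a start site, were found for 68 of the 77 genes by symbol. The ETS letters CCGGAAG, searched on both strands, were present in 25 of 68 (36.8%), in 20.5% of the promoters of tested genes and in 9.93% of all promoters. The NRF1 letters CGCATGC, also searched on both strands, were present in 8 of 68 (11.8%), in 7.35% of the promoters of tested genes and in 4.01% of all promoters. Both were present for 4 genes. The sequences below are from genes that the comparisons name, on the strand of the gene from 5′ to 3′, with the matching letters in capitals. The first 3 genes are shown for ETS and the last 2 for NRF1. *Mrpl43* holds 2 ETS matches, both shown, and *Mrpl32* holds the NRF1 letters at 3 places, of which 1 is shown.
Mrpl3, chr9:105053238-105053266, plus strand: tgagaaacggaCCGGAAGtggcccggctg
Mrpl43, chr19:45006481-45006509, minus strand: tcgcggtgactCCGGAAGcaaaactctcc
Mrpl43, chr19:45006443-45006465, minus strand: caaccccggaaCCGGAAGtcacc
Mrpl51, chr6:125192099-125192127, plus strand: caggggctaaaCCGGAAGtatttgactgg
Mrpl9, chr3:94443298-94443326, plus strand: aggcgcagctgCGCATGCgcggggtcctt
Mrpl32, chr13:14613106-14613134, minus strand: tttgacccttgCGCATGCgcaagaggggc
The letters are a description of these windows, and no binding was measured.

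The recovered libraries held 12971507 to 16025407 counts, and these genes took 0.282% to 0.382% of them. The epithelial markers fixed for 4T1 cells added up to 28407 to 34223 normalized counts in a library for 6 of 7 genes (*Cdh1* had no unique count). Leukocyte markers added up to 1.04 to 7.68 and endothelial markers to 1.91 to 13.7. The 4 fibroblast markers added up to 835 to 943 at 48 h and to 1230 and 1287 at 24 h, most of it from *Pdgfra* (952 and 1246 at 24 h). The others were lower in library B than in library A of sdAb#07.81 (24 h): in B *Dcn* had 2.87, *Lum* 0 and *Col1a1* 38.2 normalized counts, against 47.5, 34.7 and 196 in library A. Library B of sdAb#07.81 (24 h) stood apart in matrix genes, with 0 reads of *Col3a1*, *Thbs2*, *Lox* and *Lum* where library A of that group had 38 to 159 and the 48 h libraries had 16 to 125. These matrix genes were picked after their values were seen, and their part in the results below was not tested. *Nupr1* itself had 2936 and 2929 normalized counts in sdAb#07.81 (48 h), 3573 and 2990 in sdAb-Con (48 h), and 1548 and 2134 in sdAb#07.81 (24 h), and did not pass the test between the 48 h groups (adjusted p = 0.484, limma). Against sdAb#07.81 (24 h) it was higher by 0.69 on the log2 scale in sdAb#07.81 (48 h) (adjusted p = 3.4e-04, limma) and by 0.85 in sdAb-Con (48 h) (adjusted p = 2.8e-05, limma). An sdAb acts on the protein, so the transcript is no check of the treatment.

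Levels can be compared between genes only per length of transcript. Over the 6 libraries, the normalized count per kb had a median of 343 and ran from 50.5 for *Mrps25* to 3696 for *Mrpl33*. *Mrpl33*, a small protein of the large subunit, was followed by *Mrpl13* at 2357, *Mrpl42* at 1556, *Mrpl30* at 1430 and *Mrpl24* at 1397 normalized counts per kb. At the other end, *Mrps12*, a protein of the decoding site, had 70.8, *Mrpl48* 71.6, *Mrps26* 74.4 and *Mrpl17* 78.3 normalized counts per kb. The 5 highest levels per kb were all of large subunit genes. In libraries, *Mrpl13* had 2413 and 2825 normalized counts in sdAb#07.81 (48 h), 3481 and 3302 in sdAb-Con (48 h), and 2657 and 2617 in sdAb#07.81 (24 h). *Mrps12* had 54.5 and 61.5, then 75.6 and 63.4, then 69.5 and 50.6 in the same order of groups. The libraries of *Mrps12* overlapped between 24 h and both 48 h groups, and its log2 fold change between the 48 h groups, -0.26 (standard error 0.279), did not pass the test. Of the 5 lowest genes per kb, all but *Mrps12* have annotated transcripts of 4278 bases or more, and a shorter form in these cells would raise their level per kb.

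A pattern over the libraries came before any test. Relative to each gene's mean over the 6 libraries, the median log2 deviation of the 77 genes was 0.18 and 0.17 in sdAb-Con (48 h). In sdAb#07.81 (48 h) it was -0.22 in library A and 0.03 in library B, and in sdAb#07.81 (24 h) it was 0.02 in library A and -0.22 in library B. The control libraries lay together at the top, while each sdAb#07.81 group held 1 library near the mean and 1 below it. The pooled SD of this median between libraries of a group was 0.140. In bulk samples such as these, a change in the number of cells with a transcript and a change in RNA per cell cannot be told apart. Other tested genes of similar length (923 to 2596 bases) also had their highest medians in sdAb-Con (48 h), at 0.13 and 0.11. Their medians were -0.05 and 0.02 in sdAb#07.81 (48 h) and -0.07 and -0.09 in sdAb#07.81 (24 h). In the same libraries, long genes (transcripts over 5000 bases) moved the other way, with medians of -0.22 and -0.20 in sdAb-Con (48 h) and of -0.01 to 0.17 in the other libraries.

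**Figure D1:**
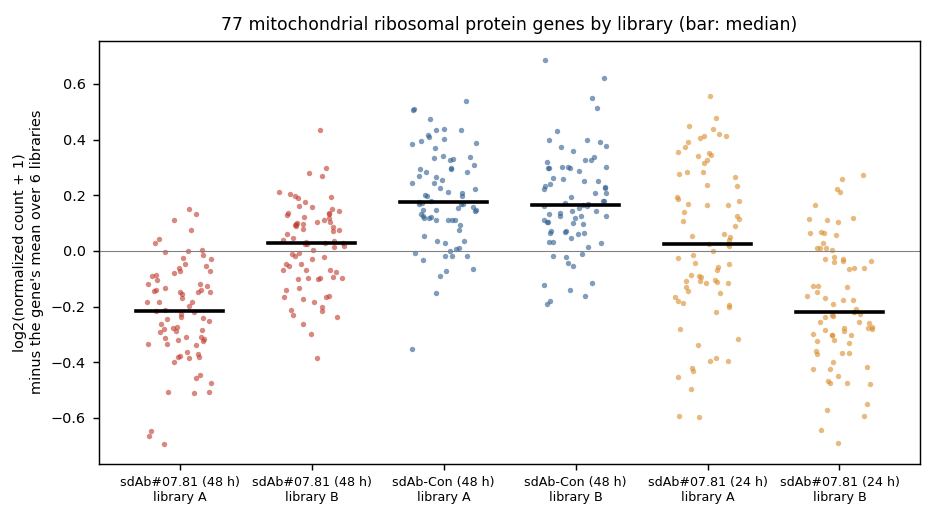
Each point is 1 of the 77 genes, shown as log2(normalized count + 1) minus the gene's mean over the 6 libraries, and the bar is the median of a library. The medians of the sdAb-Con (48 h) libraries were 0.18 and 0.17, above those of the other libraries, which ran from -0.22 to 0.03.

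The first comparison asked what 48 h of sdAb#07.81 changed against 48 h of the control sdAb. Most mitochondrial ribosomal protein genes had a small negative value, and a few of them passed the test. The log2 fold change was below 0 for 74 of the 77 genes, and its median was -0.30, against -0.01 over all tested genes. At an adjusted p under 0.05 (limma, two-sided, Benjamini-Hochberg over all 13839 genes), 9 were lower (11.7%), where 3.49% of all tested genes were lower. None was higher, with 0 at an unadjusted p under 0.05 as well and 0 by the limma-trend alternative, where 7.05% of all tested genes were higher. The other 68 did not pass, and 34 in all had an unadjusted p under 0.05, all of them lower. Both sdAb#07.81 libraries lay below both control libraries for 58 genes, as for 29.8% of all tested genes. The reverse held for 1 gene, *Mrps30*, as for 28.8% of all tested genes.

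Of the 9, 7 belong to the large subunit and 2 to the small subunit. *Mrpl54* (ENSMUSG00000034932, listed on chromosome 10 from 81100547 to 81102768 without a named build), a large subunit protein found in mitochondria alone, had the largest change. It had 115 and 143 normalized counts in sdAb#07.81 (48 h) and 223 and 230 in sdAb-Con (48 h). The groups did not overlap, and the log2 fold change was -0.82 (standard error 0.192, adjusted p = 0.00834, limma). *Mrps16* (chromosome 14, 20439372 to 20443702), a small subunit protein of bacterial descent, had 187 and 285 with sdAb#07.81 and 355 and 411 with sdAb-Con. Its log2 fold change was -0.73 (standard error 0.181, adjusted p = 0.0126, limma). *Mrpl57* (chromosome 14, 58063691 to 58066753), another mitochondria-specific protein, had 175 and 203 against 262 and 351, a log2 fold change of -0.68 (standard error 0.185, adjusted p = 0.0208, limma). These are the only 3 of the 9 that changed by 1.5-fold or more. *Mrpl49*, also specific to mitochondria, had 389 and 509 against 687 and 642, and fell by 0.58 on the log2 scale. It overlaps *Syvn1* on the other strand, and whether reads were counted by strand is not given in the sources used here.

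*Mrpl12* forms the flexible stalk of the large subunit, to which translation factors bind, together with *Mrpl10*. *Mrpl12* (chromosome 11, 120375439 to 120379891) had 632 and 780 normalized counts in sdAb#07.81 (48 h) and 970 and 1051 in sdAb-Con (48 h). It fell by 0.53 on the log2 scale (standard error 0.139, adjusted p = 0.0185, limma). *Mrpl10* had 756 and 844 against 906 and 995. Its libraries did not overlap either, but its log2 fold change of -0.25 did not pass (adjusted p = 0.218, limma). *Mrpl11*, at the base of the stalk, had 284 and 280 against 323 and 382, a log2 fold change of -0.31 that did not pass (adjusted p = 0.277, limma). *Mrpl3*, which lies near the peptidyl transferase centre, had 658 and 726 against 721 and 856. Its libraries overlapped, and its log2 fold change of -0.18 did not pass (adjusted p = 0.423, limma). Of the proteins named for the stalk and the catalytic and decoding sites, *Mrpl12* was thus the one that passed the test.

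The remaining 4 that passed have bacterial relatives. *Mrps24* had 337 and 491 normalized counts with sdAb#07.81 and 626 and 572 with sdAb-Con, and fell by 0.56 on the log2 scale (adjusted p = 0.0425, limma). *Mrpl28* had 635 and 795 against 978 and 975, and fell by 0.46. *Mrpl4*, a protein of the exit tunnel, had 490 and 441 against 633 and 642, and fell by 0.45. *Mrpl13*, the second highest per kb, fell by 0.38 (standard error 0.110, adjusted p = 0.0307, limma). The control libraries of these 4 genes lay close to each other, and the sdAb#07.81 libraries were below them throughout. *Mrpl13* overlaps *Mtbp* on the other strand and *Mrps24* overlaps *Urgcp* on the same strand.

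**Figure D2:**
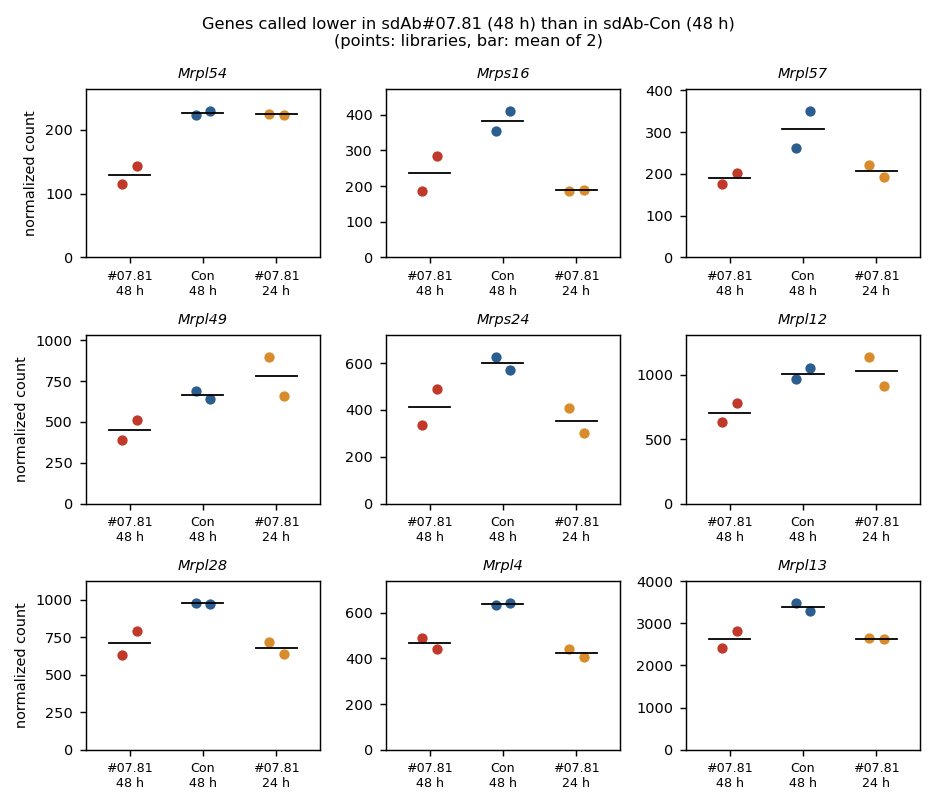
Normalized counts of the 9 genes called lower in sdAb#07.81 (48 h), in each of the 6 libraries (points) with the mean of 2 (bar). In every panel both sdAb#07.81 (48 h) libraries lie below both sdAb-Con (48 h) libraries, as for *Mrpl54* with 115 and 143 against 223 and 230.

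Among genes that did not pass, *Mrps30*, a large subunit protein in spite of its name, had 661 and 583 normalized counts with sdAb#07.81 and 569 and 521 with sdAb-Con. Its log2 fold change was 0.19 (standard error 0.150, adjusted p = 0.453, limma), and *Mrpl18* and *Mrpl50*, both at 0.07, were the other genes with a positive value. These 3 were named after their values were seen. *Mrps18a*, *Mrps18b* and *Mrps18c* are paralogs, of which *Mrps18a* sits in the large subunit and the others in the small subunit. Their log2 fold changes were -0.30, -0.13 and -0.30, and none of the 3 passed. The median log2 fold change was -0.31 over large subunit genes (7 of 50 lower) and -0.27 over small subunit genes (2 of 26 lower). It was -0.29 over genes with bacterial relatives (6 of 46 lower) and -0.32 over mitochondria-specific genes (3 of 30 lower). By promoter, the median was -0.33 over the 25 genes with the ETS letters and -0.26 over the 43 matched genes without them. Over all tested genes it was -0.06 with the letters and 0.00 without them. No difference between these classes was tested.

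**Figure D3:**
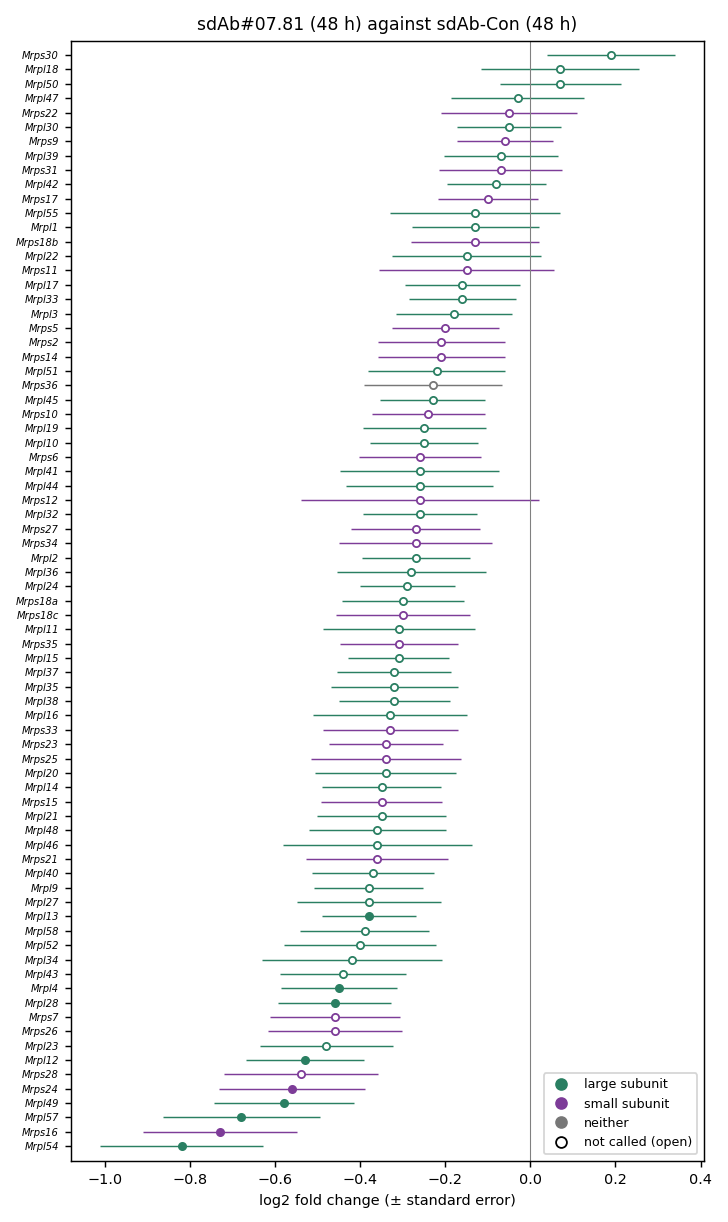
Log2 fold change with its standard error for the 77 genes, sdAb#07.81 (48 h) against sdAb-Con (48 h), sorted, with large subunit genes in green, small subunit genes in purple and *Mrps36* in grey. Filled points are the 9 genes with an adjusted p under 0.05, from -0.82 to -0.38, and 74 of the 77 values are below 0.

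Single libraries, transcript length and GC content moved with this result. A fit without 1 library leaves 1 group with a lone library, which is assumed to vary like the other groups. Without library A of sdAb#07.81 (48 h), 0 genes were called (6 had an unadjusted p under 0.05) and the median was -0.17. Without library B of that group, 17 were called and the median was -0.38. Without library A of sdAb-Con (48 h) 1 gene, *Mrpl57*, was called, and without its library B 0 were called, with 21 at an unadjusted p under 0.05 by limma. Mitochondrial ribosomal protein transcripts are short, with a median length of 1316 bases against 2791 over all tested genes. Over all tested genes, the log2 fold change of this comparison rose with transcript length (Spearman's rho 0.456 over 13679 genes, a description over genes of the same libraries) and fell with GC content (rho -0.325). Over the 77 genes alone, rho was 0.168 with length and -0.461 with GC content. The 4857 other tested genes in the middle range of these lengths, 923 to 2596 bases, had a median of -0.14, with 272 of them lower and 108 higher by limma. With the dependence on length, GC content and mean level removed together by regression over all genes, the 77 genes had a median of -0.11, and 59 of them were below 0. The calls were then 3, all lower, namely *Mrps16*, *Mrpl57* and *Mrps26*. Genes with transcripts of at least the median length (39 genes, median length 2596) had a median of -0.27 before and -0.28 after that removal. Those with shorter transcripts (38 genes, median length 920) had -0.32 before and -0.05 after. Annotated lengths may differ from those of the transcripts present in these cells.

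**Figure D4:**
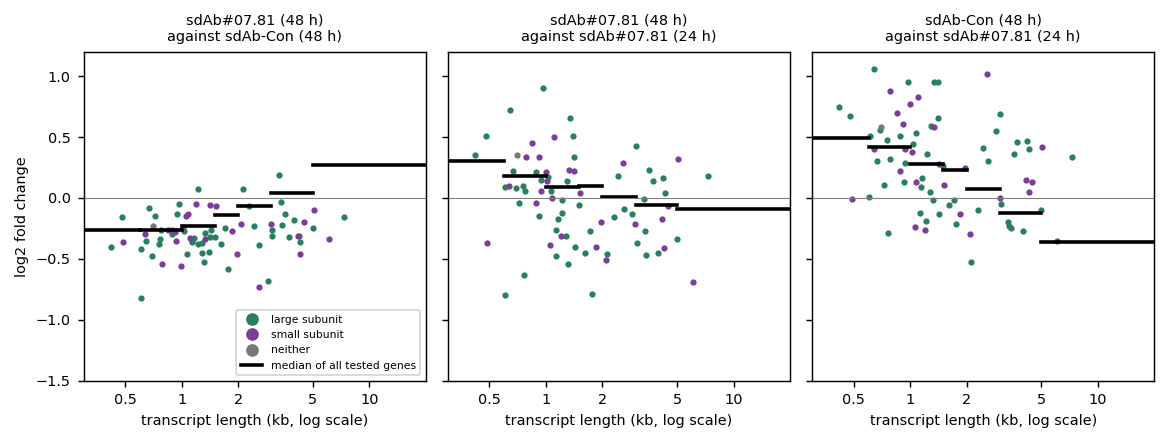
Log2 fold change against transcript length (log scale) for the 77 genes, coloured by subunit, in the 3 comparisons, with black bars for the median of all tested genes in each range of length. In sdAb#07.81 (48 h) against sdAb-Con (48 h) the bars rise from -0.26 to 0.27, and in sdAb-Con (48 h) against sdAb#07.81 (24 h) they fall from 0.49 to -0.36.

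The second comparison asked what changed between 24 h and 48 h of sdAb#07.81. No sdAb-Con group was taken at 24 h, so time under sdAb#07.81 and time in culture cannot be told apart. Genes of the group were called in both directions. The median log2 fold change was 0.00 over the 77 genes and 0.00 over all tested genes, with a range of -0.80 to 0.90. At 48 h, 10 genes were higher (13.0%), where 21.4% of all tested genes were higher, and 12 were lower (15.6%), where 21.7% of all tested genes were lower. Both shares of these genes were below those of all tested genes. The libraries did not overlap for 20 genes higher and 21 genes lower at 48 h, and each direction holds for 35.5% of all tested genes.

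The genes that rose by 48 h were led by *Mrpl30* (chromosome 1, 37929558 to 37937616), a large subunit protein of bacterial descent. It had 876 and 848 normalized counts at 24 h and 1453 and 1789 at 48 h. The log2 fold change was 0.90 (standard error 0.127, adjusted p = 5.9e-06, limma). *Mrpl14* (chromosome 17, 45997248 to 46009421) had 289 and 252 at 24 h and 441 and 448 at 48 h, a log2 fold change of 0.72 (standard error 0.152, adjusted p = 6.0e-04, limma). *Mrpl24*, near the exit of the peptide tunnel, had 1192 and 1295 at 24 h and 1841 and 2089 at 48 h, and rose by 0.66 (adjusted p = 7.5e-05, limma). Each of these 3 was well apart between the times, and *Mrpl14* and *Mrpl24* overlap *Tmem63b* and *Rrnad1* on the other strand. *Mrpl43* and *Mrpl33* rose by 0.51 each, *Mrps33* by 0.50, *Mrps6* by 0.45, *Mrpl32* by 0.43, *Mrpl38* by 0.34 and *Mrps17* by 0.32 on the log2 scale. On the other strand *Mrpl43* overlaps *Twnk* and *Mrpl33* overlaps *Rbks*, and *Mrps6* overlaps *Gm16310* and *Slc5a3* on the same strand. Of the 10, 7 encode large subunit proteins.

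The genes that fell by 48 h were led by *Mrpl54* and *Mrpl49*. *Mrpl54* had 225 and 224 normalized counts at 24 h and 115 and 143 at 48 h, a log2 fold change of -0.80 (standard error 0.191, adjusted p = 0.00159, limma). *Mrpl49* had 898 and 659 at 24 h and 389 and 509 at 48 h, a log2 fold change of -0.79 (standard error 0.161, adjusted p = 4.8e-04, limma). *Mrps25*, a mitochondria-specific protein of the small subunit, had 402 and 363 at 24 h and 210 and 267 at 48 h, and fell by 0.69. *Mrpl20* had 444 and 395 against 238 and 308, and fell by 0.63. *Mrpl12* of the stalk had 1140 and 915 against 632 and 780, and fell by 0.54 (adjusted p = 0.00297, limma). In these 5 genes the 24 h libraries were above the 48 h libraries without overlap. *Mrps2* fell by 0.51, *Mrpl51* by 0.47, *Mrpl50* by 0.46, *Mrpl3* and *Mrpl9* by 0.45, *Mrps26* by 0.41 and *Mrps27* by 0.40 on the log2 scale. *Mrpl10*, the partner of *Mrpl12* in the stalk, had a log2 fold change of -0.27 and did not pass (adjusted p = 0.0932, limma). *Mrpl54*, *Mrpl49* and *Mrpl12* were called lower in this comparison and in the first, and the comparisons share the sdAb#07.81 (48 h) libraries.

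The counts of this comparison depended on single libraries. Without library B of sdAb#07.81 (24 h), the library with 0 reads of *Col3a1*, *Thbs2*, *Lox* and *Lum*, 5 genes were higher and 22 lower. Without library A of that group 11 were higher and 6 lower. Without library A of sdAb#07.81 (48 h) 11 were higher and 2 lower, and without its library B 3 were higher and 12 lower. In each of these 4 fits *Mrpl14*, *Mrpl24* and *Mrpl30* were called higher and *Mrpl49* and *Mrpl54* lower, with the spread of the lone library again taken from the other groups. With the dependence on length, GC content and mean level removed, 10 were higher and 20 lower, and all 22 calls were among these 30. Over all tested genes, Spearman's rho of the log2 fold change was -0.136 with length and 0.0195 with GC content.

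The third comparison, sdAb-Con (48 h) against sdAb#07.81 (24 h), differs in both agent and time, whose parts cannot be told apart. Mitochondrial ribosomal protein genes were called higher in sdAb-Con (48 h) more often than lower. Over the 77 genes the middle log2 fold change was 0.29, against 0.00 over all tested genes and 0.19 over the other tested genes of 923 to 2596 bases. There were 37 genes higher (48.1%), where 25.2% of all tested genes were higher, and 1 lower (1.30%), where 26.1% of all tested genes were lower. Of the other tested genes of 923 to 2596 bases, 33.8% were higher and 15.4% lower. The 37 included 24 of 50 large subunit genes, 12 of 26 small subunit genes and *Mrps36*. By descent, they included 25 of 46 genes with bacterial relatives and 11 of 30 mitochondria-specific genes.

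*Mrpl14* had the largest change, with 289 and 252 normalized counts in sdAb#07.81 (24 h) and 593 and 538 in sdAb-Con (48 h), a log2 fold change of 1.06 (standard error 0.147, adjusted p = 3.1e-06, limma). *Mrps16* had 186 and 190 in sdAb#07.81 (24 h) and 355 and 411 in sdAb-Con (48 h), a log2 fold change of 1.02 (standard error 0.183, adjusted p = 7.9e-05, limma). In both genes every sdAb-Con (48 h) library was far above every sdAb#07.81 (24 h) library. *Mrpl43*, *Mrpl30* and *Mrpl24* rose by 0.95 each on the log2 scale, *Mrps28* by 0.88, *Mrps33* by 0.83, *Mrps24* by 0.77, *Mrpl52* by 0.75 and *Mrps6* by 0.70. The gene that fell was *Mrpl50* (chromosome 4, 49512596 to 49521093), a mitochondria-specific large subunit protein. It had 985 and 834 normalized counts in sdAb#07.81 (24 h) and 565 and 699 in sdAb-Con (48 h), a log2 fold change of -0.53 (standard error 0.136, adjusted p = 0.00242, limma). *Mrpl12* and *Mrpl54* had log2 fold changes of -0.02 and 0.01 and did not pass.

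Length and GC content also moved with this comparison. Over all tested genes Spearman's rho of the log2 fold change was -0.340 with length and 0.185 with GC content, and over the 77 genes it was -0.329 and 0.216. With the dependence on length, GC content and mean level removed together, the median of the 77 genes was 0.06, with 21 higher and 12 lower. No one of the 3 was removed alone. Of the 38 calls, 21 were among these 33. *Mrpl12* and *Mrpl54*, which did not pass in the main fit, were also among the 33. Without library B of sdAb#07.81 (24 h), 22 genes were higher and 10 lower. Without library A of that group they were 36 and 1. Without library A of sdAb-Con (48 h) they were 24 and 0, and without its library B 24 and 1, by limma.

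**Figure D5:**
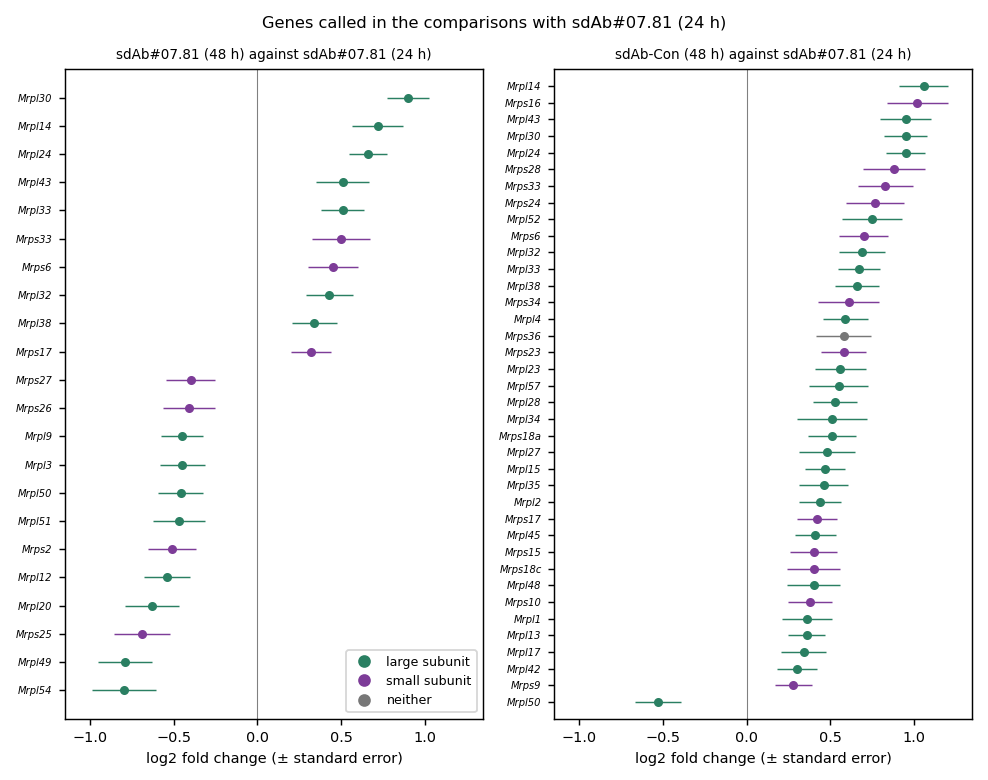
Log2 fold change with its standard error for the genes called in the 2 comparisons with sdAb#07.81 (24 h), coloured by subunit. On the left, 10 genes were higher and 12 lower in sdAb#07.81 (48 h), and on the right, 37 were higher and 1, *Mrpl50*, was lower in sdAb-Con (48 h).

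The other proteins that the mitochondrial ribosome needs were followed through lists written from textbook knowledge. In all, 5 ribosomal proteins carry another name. Between the 48 h groups none of the 5 was called (limma, with *Aurkaip1*, log2 fold change -0.47 and adjusted p = 0.0504, nearest to the threshold), and their median was -0.37. Against 24 h, *Ptcd3*, an RNA-binding small subunit protein, had 2413 and 1993 normalized counts at 24 h and 1050 and 1163 in sdAb#07.81 (48 h), and fell by 0.99 (adjusted p = 8.9e-07, limma). *Gadd45gip1*, in the large subunit, fell by 0.44 (adjusted p = 0.0421, limma), so 2 of the 5 were lower and 0 higher by limma, where 21.7% of all tested genes were lower and 21.4% higher. In sdAb-Con (48 h) against sdAb#07.81 (24 h) 1 was lower, *Ptcd3* by 1.10, and 3 were higher, where 26.1% and 25.2% of all tested genes were. *Dap3*, a GTP-binding small subunit protein, rose by 0.51 in sdAb-Con (48 h) against sdAb#07.81 (24 h), as did *Aurkaip1* and *Chchd1* by 0.43 and 0.44.

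Of 16 translation factors and their partners, 1 was lower (6.25%) under sdAb#07.81 (48 h) than under sdAb-Con (48 h), where 3.49% of all tested genes were. It was *Tufm*, the elongation factor that brings aminoacyl-tRNA to the mitochondrial ribosome. *Tufm* had 806 and 886 normalized counts against 1090 and 1214, and fell by 0.45 (adjusted p = 0.0254, limma). Against 24 h, 3 were lower (18.8%) and 2 higher (12.5%) in sdAb#07.81 (48 h), shares no larger than the 21.7% and 21.4% of all tested genes. *Lrpprc*, which stabilises mitochondrial messenger RNA with *Slirp*, had 2259 and 2358 at 24 h and 1004 and 1060 at 48 h, and fell by 1.16 (adjusted p = 3.1e-08, limma). *Slirp* had a log2 fold change of 0.11 and did not pass. *Tufm* fell by 0.53 and *Guf1* by 0.43, while *Mtfmt*, which formylates the initiator tRNA, rose by 0.62 and *Oxa1l*, which inserts new proteins into the inner membrane, by 0.32.

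Among 29 assembly and rRNA modification factors, 1 was lower under sdAb#07.81 (48 h) than under sdAb-Con (48 h), namely *C1qbp*, which had 2004 and 2210 normalized counts against 2777 and 2926 and fell by 0.44 (adjusted p = 0.0153, limma). That is 3.45% of the list, close to the 3.49% of all tested genes, and none was higher by limma. Against 24 h, 7 were lower (24.1%) and 3 higher (10.3%) in sdAb#07.81 (48 h), where 21.7% and 21.4% of all tested genes were. The largest falls were in *Ddx28*, an RNA helicase, by 1.07, *Fastkd2* by 0.75 and *Mrm3*, an rRNA methyltransferase, by 0.66. The rises were in *Tfb1m*, which methylates the small subunit rRNA, by 1.05, *Mpv17l2* by 0.69 and *Rbfa* by 0.51. *Tfb1m* had 229 and 285 normalized counts at 24 h and 526 and 531 at 48 h.

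Of 17 mitochondrial aminoacyl-tRNA synthetases, 16 were tested (*Lars2* had no unique count). *Mars2*, 1 of the 16 (6.25%, where 7.05% of all tested genes were higher), was higher under sdAb#07.81 (48 h) than under sdAb-Con (48 h), with 382 and 347 normalized counts against 241 and 264 and a log2 fold change of 0.53 (adjusted p = 0.0330, limma). Against 24 h, 7 were lower (43.8%) and 0 higher in sdAb#07.81 (48 h) by limma, led by *Tars2* with a fall of 1.12, *Yars2* with 0.94 and *Sars2* with 0.86. Of all tested genes 21.7% were lower and 21.4% higher in that comparison. Of 14 genes for mitochondrial DNA expression, *Pnpt1*, a ribonuclease of the mitochondria, was higher in sdAb#07.81 (48 h) than in both other groups. It had 1737 and 1863 normalized counts, against 1326 and 1177 in sdAb-Con (48 h) and 1258 and 1176 at 24 h, with log2 fold changes of 0.53 and 0.56 (adjusted p = 0.00522 and 4.1e-04, limma). *Hsd17b10*, a subunit of mitochondrial RNase P, fell by 0.41 between the 48 h groups (adjusted p = 0.0297, limma). These 2 genes were the calls of the list between the 48 h groups, 7.14% in each direction, where 7.05% of all tested genes were higher and 3.49% lower. Against 24 h, 5 of the 14 were lower (35.7%) and 1 higher (7.14%) in sdAb#07.81 (48 h). *Supv3l1*, the helicase partner of *Pnpt1*, fell by 0.73, *Twnk*, the helicase of mitochondrial DNA, by 0.56 and *Polg*, its polymerase, by 0.51.

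In sdAb-Con (48 h) against sdAb#07.81 (24 h), 25.2% of all tested genes were higher and 26.1% lower. The translation factors had 4 higher and 2 lower genes of 16, with *Oxa1l* higher by 0.53, *Mrrf*, the ribosome recycling factor, by 0.45 and *Slirp* by 0.43. *Lrpprc* fell by 0.87 and *Guf1* by 0.79. The assembly factors had 5 genes in each direction (17.2% each), from *Tfb1m* with a rise of 1.32 and *Mpv17l2* with 1.10 to *Ddx28* with a fall of 1.07. Of the 16 synthetases 8 were lower, led by *Tars2* with a fall of 0.80, and 1 was higher, *Fars2*, by 0.91. Among genes for mitochondrial DNA expression 2 were higher (14.3%) and 3 lower (21.4%), where *Polg2* rose by 0.74 and *Twnk* fell by 0.67. All values are log2 fold changes from the same limma fit.

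The RNA of the mitochondrial ribosome and the messages it reads are encoded by mitochondrial DNA. Of 15 such transcripts 9 had unique counts, and none was called between the 48 h groups by limma. The rRNA *mt-Rnr1* had 10072 and 9802 normalized counts in sdAb#07.81 (48 h), 8847 and 7026 in sdAb-Con (48 h), and 5101 and 6449 in sdAb#07.81 (24 h). It rose by 0.79 from 24 h to 48 h of sdAb#07.81 (adjusted p = 3.3e-05, limma), and *mt-Rnr2* by 0.40, the 2 called of the 9 (22.2%, where 21.4% of all tested genes were higher). In sdAb-Con (48 h) against sdAb#07.81 (24 h), 4 of the 9 were higher (44.4%, against 25.2% of all tested genes) and 0 lower (26.1% of all tested genes) by limma, namely *mt-Atp6* by 0.51, *mt-Rnr1* and *mt-Co3* by 0.46 and *mt-Rnr2* by 0.28. For comparison, 46 cytosolic ribosomal protein genes with unique counts had median log2 fold changes of -0.46 (31 lower, 0 higher), 0.62 (38 higher, 0 lower) and 1.08 (46 higher, 0 lower) in the 3 comparisons, by limma. These are 67.4% lower, 82.6% higher and 100% higher, where 3.49%, 21.4% and 25.2% of all tested genes were. Their transcripts are shorter still, with a median of 736 bases, and with the dependence on length, GC content and mean level removed the medians were -0.15, 0.45 and 0.62.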

How the data were processed

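Total RNA extracted from 4T1 cells was read by the authors as paired ends. Per the labels, the submitters' processing notes name cutadapt 1.9.1, HISAT2 2.0.1, HTSeq 0.6.1 and GRCh38.p14, a human build, so coordinates follow the tables without a build. Of the 2 tables the authors deposited for comparisons of sdAb#07.81 (48 h), 1 column was used, a signal made by the authors before deposit as the mean over 4 libraries of counts divided by size factors, given to 15 significant digits. The authors' comparison columns (fold change, log2 fold change with its error, statistic, p-value and adjusted p-value) were not used.

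Whole-number counts of the 6 libraries were recovered from these means. The value of 1 read in each library was read from genes with a single read, and the counts that add up to the printed mean were found by lattice reduction. The libraries in both tables are those of sdAb#07.81 (48 h), and the others belong to the second group of their table. A unique solution was found for 28589 of 28712 genes, and 123 of the most abundant genes were left out. Of 6819 genes with means of 10 to 500, solved in each table alone, 6819 gave the same counts for the shared libraries. The recovery and the fit were tested on simulated data.

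The 13839 genes whose normalized count averaged 10 or more were fitted in 1 model of the 3 groups with limma 3.58.1 under R 4.3.3, with voom weights, robust empirical Bayes, median-of-ratios size factors (0.911 to 1.09) and an adjusted p threshold of 0.05. A gene called higher or lower passed that threshold. Transcript length and GC content came from GENCODE vM21. Tables used Python 3.11.15, numpy 2.4.6 and pandas 2.3.3, and figures matplotlib 3.10.9.

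The genes and lists were chosen with earlier results of these data known. Genes were named from the 10 called genes with the strongest rise and fall in a comparison, the 5 highest and lowest levels per kb, the genes on either side of the mean of 10, *Mrpl12*, *Mrpl10*, *Mrps12*, *Mrpl3*, *Mrpl11*, the *Mrps18* paralogs, *Nupr1*, and of the other lists the genes called between the 48 h groups and the 3 with the strongest rise and fall in a comparison. Alternatives were other scalings, filters, pseudocounts, samples and removal of the dependence on length, GC content and mean level by a polynomial of degree 3.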

Additional observations from a re-analysis of the deposited data

How the results depend on the processing

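Between the 48 h groups, the number of genes called was 9, and 15 with upper quartile scaling, 15 with the fit limited to the 2 groups compared, 3 when a 1.5-fold change was also required and 3 with the dependence on length, GC content and mean level removed, which also moved the median from -0.30 to -0.11. Leaving out 1 library gave 0 to 17 calls and medians of -0.38 to -0.17. In sdAb#07.81 (48 h) against sdAb#07.81 (24 h), 22 genes were called, and 7 when a 1.5-fold change was required. Leaving out 1 library gave 13 to 27 calls and medians of -0.11 to 0.15. In sdAb-Con (48 h) against sdAb#07.81 (24 h), 38 genes were called, and 15 when a 1.5-fold change was required. Leaving out 1 library gave 24 to 37 calls and medians of 0.17 to 0.39, and removal of that dependence moved the median to 0.06. With it, the genes below 0 went from 22 to 33 of the 77, and *Mrpl42*, called higher before, changed sign to -0.03. Between the 48 h groups the same removal took the genes below 0 from 74 to 59. The fold requirement removes calls by construction, and the cause of the other moves was not tested. Trimmed mean of M values scaling, no filter, a mean of at least 100 and limma-trend with a pseudocount of 1 or 0.5 left all 3 counts of calls within 1.5 times.

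No paired analysis was possible because the recovered libraries carry no replicate number. With 2 libraries in a group and a median standard error of 0.150 on the log2 scale between the 48 h groups, the smallest change called there was -0.38.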
